A study of Mus musculus with 4 samples.

Results

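In wild-type mouse testis, libraries made after ultraviolet irradiation aimed only at Leydig cells were compared with libraries made after irradiation of the entire section. The comparison took 6 of the 12 libraries of the series, 3 on each side, chosen by their genotype and irradiation labels. The titles of both groups carry the word young, the animals are labelled wild-type, and no other allele or agent is named. The other 6 libraries came from mice with a deletion of H3t, a testis-specific histone H3 gene, and are used here only where the region difference is set beside theirs. No label ties the 3 libraries of a group to separate animals, and the spread that the p-values rest on may be technical. Each group was also 1 library pool, so pool and group cannot be told apart.

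Leydig cells lie between the seminiferous tubules and make testosterone under luteinizing hormone. Cholesterol taken up or made in the cell is carried into mitochondria, cut to pregnenolone, and converted through a chain of P450 and hydroxysteroid dehydrogenase steps. Photo-isolation chemistry (PIC) copies RNA in a tissue section with light-caged primers, so that only the irradiated area yields a library; the sections here were 10 µm thick. The light is aimed at an area, and RNA of neighbouring cells inside it is read as well.

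Depth differed strongly between the sides. The Leydig-targeted libraries held 54882, 26853 and 5947 counts, and the entire-section libraries 566527, 522652 and 247539. They detected 10730, 7664 and 2568 genes against 19102, 18713 and 16174. A single count in Leydig-targeted library 3 equals 168.2 CPM, the unit of counts scaled to a common library total. The limit that a count of 0 allows over the 3 Leydig-targeted libraries is 34.2 CPM, which covers counting error only.

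Of 28595 genes, 9218 had 20 or more counts summed over the 6 libraries and were tested with edgeR's quasi-likelihood test, with p-values adjusted by the Benjamini-Hochberg method. At an adjusted p of 0.05, 140 genes (1.52%) were higher in the Leydig-targeted libraries and 210 (2.28%) were lower. Fold changes are log2 values of Leydig-targeted over entire section, with standard errors (SE). The trimmed-mean (TMM) scaling gave Leydig-targeted library 3 a factor of 2.36 and placed the median of all genes at -0.66. Scaling by library size alone placed that median at -0.24 and called 330 genes higher and 200 lower, so the share of higher calls was 40.0% with the first scaling and 62.3% with the second. A gene near -0.66 therefore held its place among all genes. The 140 and 210 fell to 34 and 7 without entire-section library 3, to 57 and 19 without entire-section library 1, to 71 and 60 without entire-section library 2, and to 91 and 29 without Leydig-targeted library 2. They were 96 and 175 without Leydig-targeted library 1 and rose to 209 and 338 without Leydig-targeted library 3, the shallowest.

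**Figure D1:**
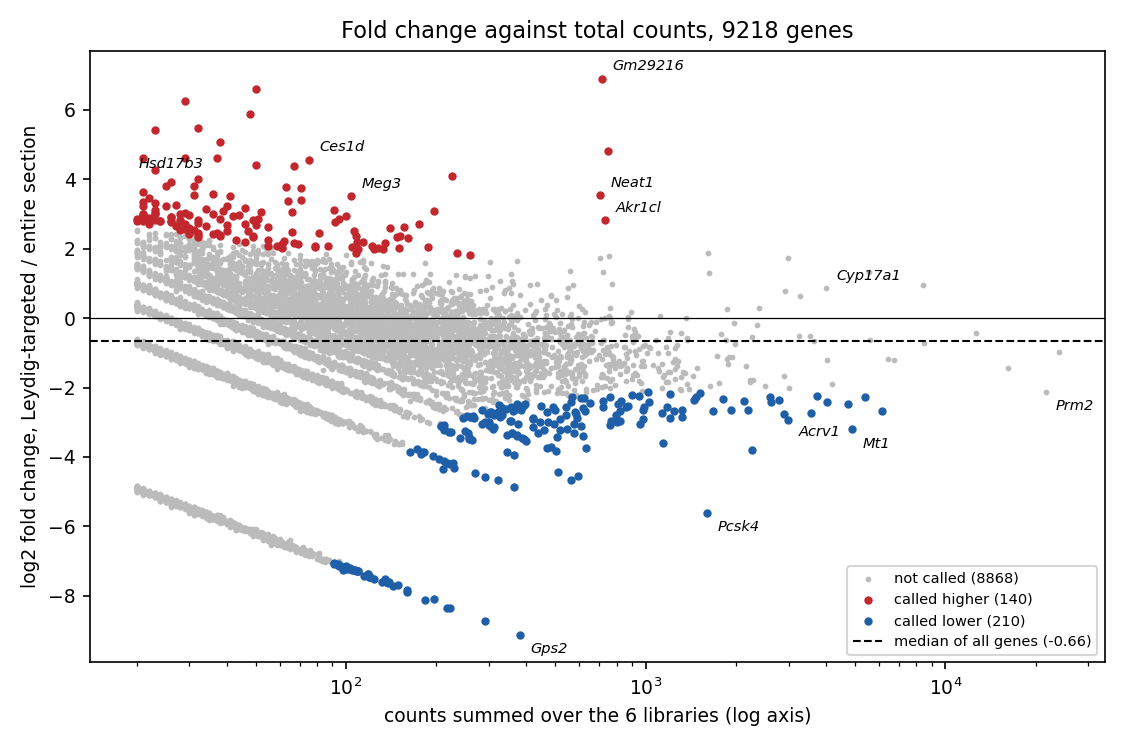
Log2 fold change (vertical axis, Leydig-targeted over entire section) against counts summed over the 6 libraries (horizontal log axis) for 9218 genes; red points were called higher, blue points lower, and the dashed line is the median of all genes at -0.66. Calls toward higher values lie mostly at low counts, calls toward lower values mostly at high counts, and the slanting bands at the left are genes with 0, 1, 2 or 3 Leydig-targeted counts.

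Higher calls had fewer counts than lower calls. The median count over the 6 libraries was 41.5 for the 140 higher genes, 362 for the 210 lower genes and 62 for all genes tested. Of the 210 lower genes 42 had no count in any Leydig-targeted library, as did 974 of all 9218 genes tested. In 31 of the 140 higher genes 1 library held over 80% of the Leydig-targeted counts, as it did in 3574 of the 9218. CPM values of the 2 groups did not overlap for 55.0% of the higher genes, 96.7% of the lower genes and 29.6% of all genes tested.

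RNA of steroid synthesis and of Leydig cell identity took a larger share of the Leydig-targeted libraries. The 33 genes of both lists held 1.67%, 3.49% and 3.30% of counts there, against 0.787%, 0.390% and 0.739% in entire sections. The groups did not overlap, the ratio of means was 4.41, and the exact two-sided permutation p was 0.1, the smallest that 3 against 3 allows (0.2 after adjustment over 32 shares). All gene lists used here were chosen with earlier results of these data known. The p-values of their shares and their counts of called genes are therefore descriptive. Exact 95% intervals, for counting error only, ran from 1.56% to 1.78% for the lowest Leydig-targeted share and from 0.764% to 0.810% for the highest entire-section share. Ptgds and Cyp17a1 carried most of the share of the 33 genes in every library of both groups. Ptgds had 4027, 11097 and 19506 CPM against 2078, 1154 and 2287. Cyp17a1 had 5448, 10651 and 4372 CPM against 3147, 1496 and 3276. Neither gene was called with edgeR (adjusted p = 0.11 and 0.43), although the CPM of each did not overlap between the groups. So the label of the irradiated area and the summed share of its defining transcripts go the same way, although most counts belonged to genes outside both lists. In such bulk samples fewer cells of a type and less RNA per cell cannot be told apart.

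**Figure D2:**
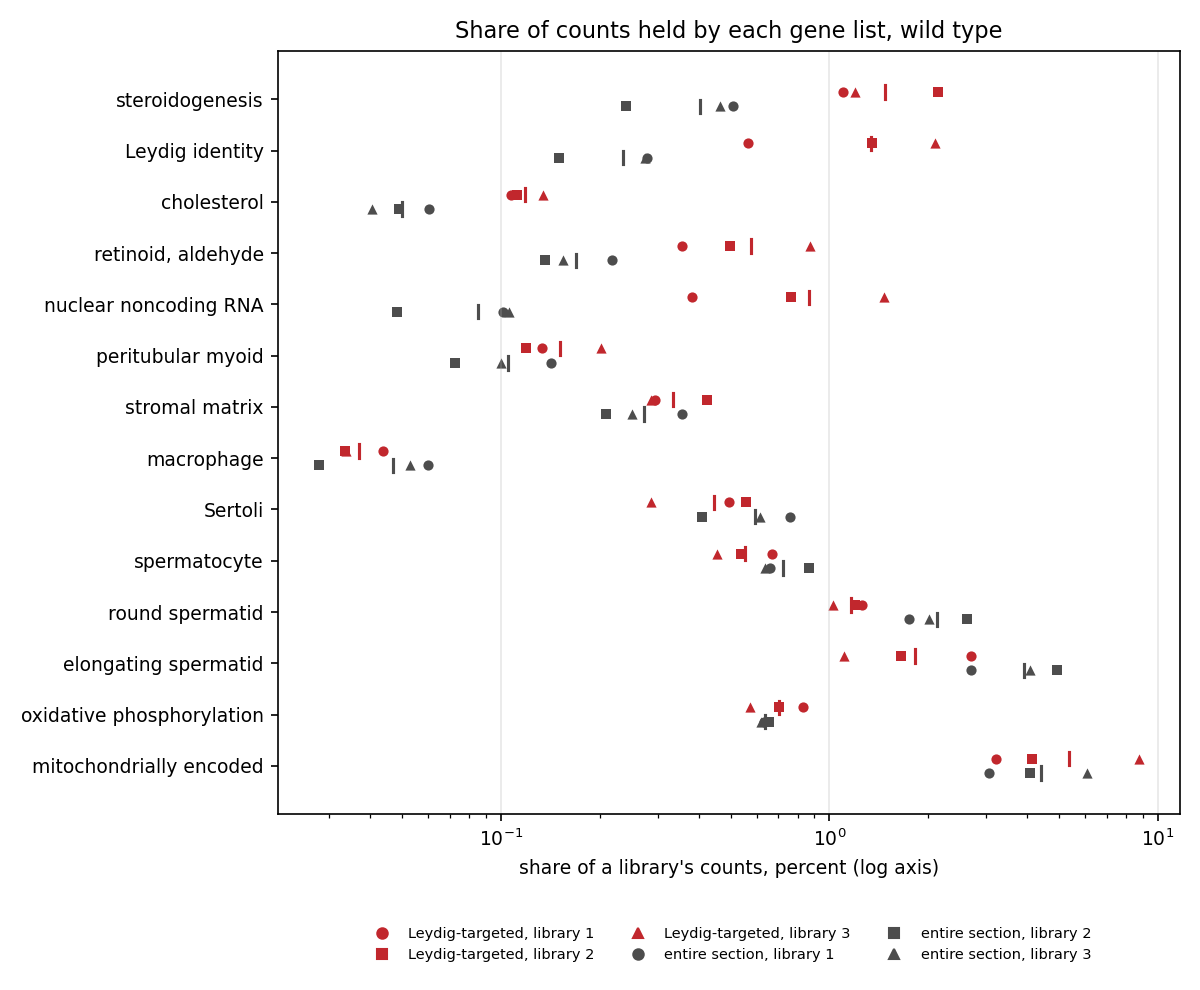
Share of each library's counts (horizontal log axis, percent) held by 13 gene lists and by the mitochondrially encoded genes; red marks are the 3 Leydig-targeted libraries, grey marks the 3 entire-section libraries, and vertical ticks are group means. The 2 groups are apart for steroidogenesis, Leydig identity, cholesterol, retinoid and nuclear noncoding RNA lists (red higher) and for round spermatid genes (red lower), and overlap in the other lists and in the mitochondrially encoded genes.

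Of 22 steroidogenesis genes, 17 were tested, 6 rose and none fell, beside 1.52% higher and 2.28% lower over all genes tested. The median of the 17 was 1.33 against -0.66 over all genes, and 16 of them were positive. With library size alone 9 rose, and with DESeq2 7. The count rested on each library: it was 0 without entire-section library 1 or 3, 1 without entire-section library 2, 2 without Leydig-targeted library 2, 4 without Leydig-targeted library 1 and 7 without Leydig-targeted library 3.

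At the entry of the pathway, Scarb1 encodes the receptor that takes cholesterol from high-density lipoprotein. It had 219, 372 and 0 CPM in the Leydig-targeted libraries and 53.0, 26.8 and 52.5 CPM in entire sections. The shallow library held none of its counts and the others stood above every section. The change was 2.07 (SE 0.61, adjusted p = 0.027). Star, the protein that moves cholesterol into mitochondria, had 26, 15 and 1 counts against 110, 43 and 38, or 474, 559 and 168 CPM against 194, 82.3 and 154. Its value in Leydig-targeted library 3 lay within the range of the sections. Star was not called at 1.24 (SE 0.56, adjusted p = 0.18), but passed with library size alone (1.70, adjusted p = 0.012).

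Cyp11a1, the side-chain cleavage enzyme that makes pregnenolone, had 0, 5 and 4 counts against 8, 4 and 2. In CPM these were 0, 186 and 673 against 14.1, 7.65 and 8.08, so a library at 0 sat under all sections and the other two far above. The change was 3.00 (SE 0.81, adjusted p = 0.014). Fdxr, the reductase that feeds electrons to this enzyme, had 7, 3 and 0 counts against 5, 3 and 3. It rose by 3.24 (SE 0.80, adjusted p = 0.0057) with the shallow library again at 0.

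Hsd3b1 and Hsd3b6 encode the testis forms of the dehydrogenase that converts pregnenolone to progesterone. Hsd3b6 had 510, 708 and 673 CPM in the Leydig-targeted libraries and 125, 74.6 and 109 in entire sections. The 3 targeted values lay close together and did not overlap the sections. The change was 2.04 (SE 0.56, adjusted p = 0.015). Hsd3b1 had 1731, 2085 and 1682 CPM against 593, 251 and 303. These groups did not overlap either, and the change of 1.73 (SE 0.60) missed the threshold at an adjusted p of 0.075, with a value of 2.27 and an adjusted p of 5e-05 under library size alone. The 2 genes are closely related neighbours on chromosome 3, and no source used here says how reads shared by such genes were split.

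Cyp17a1, the enzyme with the hydroxylase and lyase steps toward androgens, had 299, 286 and 26 counts against 1783, 782 and 811, or 5448, 10651 and 4372 CPM against 3147, 1496 and 3276. The groups did not overlap, yet the change was 0.87 (SE 0.64, adjusted p = 0.43). Hsd17b3, which makes testosterone from androstenedione, had 5, 4 and 3 counts against 9, 4 and 4. This was 91.1, 149 and 504 CPM against 15.9, 7.65 and 16.2, with no overlap. It rose by 3.02 (SE 0.74, adjusted p = 0.0052). Akr1cl, a member of the aldo-keto reductase family, was the most deeply counted of the 6, with 100, 159 and 16 counts against 278, 97 and 83. Its CPM were 1822, 5921 and 2690 against 491, 186 and 335, and it rose by 2.82 (SE 0.64, adjusted p = 0.0019).

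Each of these 6 calls was lost when 1 of several libraries was left out. Akr1cl and Hsd3b6 passed only in the fits without Leydig-targeted library 1 or 3, Hsd17b3 in those without any 1 of the Leydig-targeted libraries, Fdxr in those without Leydig-targeted library 2 or 3 or entire-section library 2, and Cyp11a1 and Scarb1 in 1 fit each. Their changes stayed positive in every such fit, between 1.66 and 3.99.

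**Figure D3:**
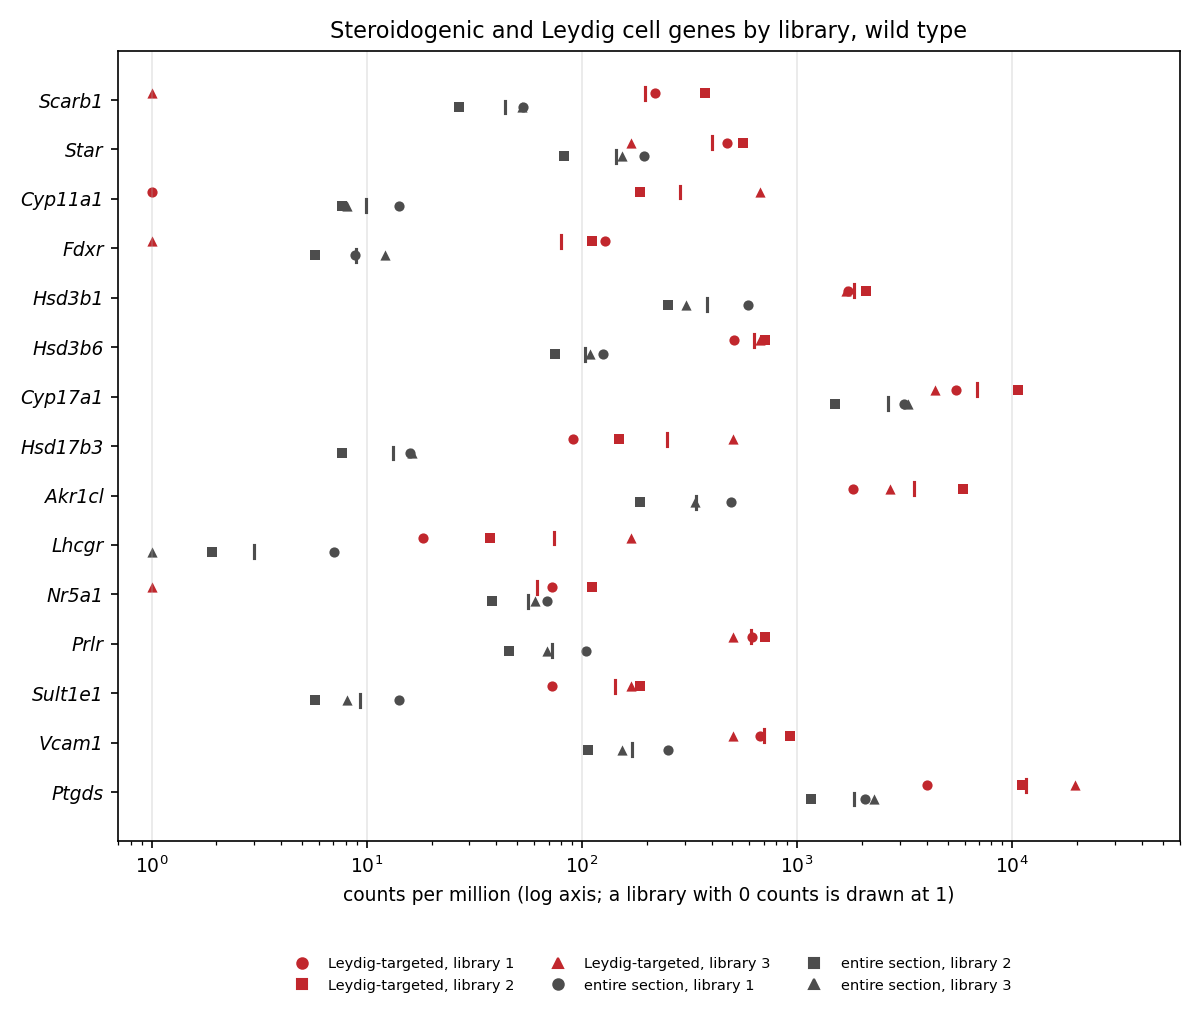
CPM (horizontal log axis) of 15 steroidogenic and Leydig cell genes; red marks are the 3 Leydig-targeted libraries, grey marks the 3 entire-section libraries, ticks are group means, and a library with 0 counts is drawn at 1. Scarb1, Cyp11a1, Fdxr and Nr5a1 each have a Leydig-targeted library at 0, while Hsd3b1, Hsd3b6, Cyp17a1, Hsd17b3, Akr1cl, Lhcgr, Prlr, Sult1e1, Vcam1 and Ptgds have all red marks to the right of all grey marks.

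Because these genes rose together, the 250 bases before their start were read from RefSeq promoter windows (GRCm38.p6), which hold 5 of the 6 genes. Akr1cl and Hsd3b6 are shown as the genes with the most counts among them, beside Prm2, a protamine gene of elongating spermatids that lay on the opposite side. All 3 are on the minus strand and are printed 5′ to 3′ up to the base before the start; capitals mark AAGGTCA, the core letters bound by the steroidogenic regulator NR5A1. The windows are chr1:65032760-65033009, chr3:98814444-98814693 and chr16:10792106-10792355.
Akr1cl: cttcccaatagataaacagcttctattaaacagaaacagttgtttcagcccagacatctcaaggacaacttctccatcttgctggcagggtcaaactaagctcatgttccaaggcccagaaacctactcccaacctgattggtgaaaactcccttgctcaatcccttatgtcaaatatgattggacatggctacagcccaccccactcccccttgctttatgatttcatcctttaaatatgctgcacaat
Hsd3b6: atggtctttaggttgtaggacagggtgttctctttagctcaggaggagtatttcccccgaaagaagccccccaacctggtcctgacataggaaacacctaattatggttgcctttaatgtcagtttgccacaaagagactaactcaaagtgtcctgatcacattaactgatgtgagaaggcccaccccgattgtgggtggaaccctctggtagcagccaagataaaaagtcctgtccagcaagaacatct
Prm2: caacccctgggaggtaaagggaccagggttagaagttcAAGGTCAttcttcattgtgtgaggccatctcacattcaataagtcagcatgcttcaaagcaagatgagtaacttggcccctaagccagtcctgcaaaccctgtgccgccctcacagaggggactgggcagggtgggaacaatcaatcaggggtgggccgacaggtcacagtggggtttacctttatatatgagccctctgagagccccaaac

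On either strand, AAGGTCA was in none of the windows of the 5 steroidogenic genes and in 4.08% of all 32851 RefSeq windows of this length. The full cyclic-AMP response letters TGACGTCA were in none of them either and in 1.55% of all windows. The shorter TGACG, which is part of the longer motif, was in 1 of 2 windows of Cyp11a1 and in 17.8% of all windows. A match is a description of letters, and its absence from a window of this size says nothing about binding of the factor.

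The regulators and receptors of the Leydig cell were thinly counted. Lhcgr, the luteinizing hormone receptor, had 1, 1 and 1 counts against 4, 1 and 0 and was under the count minimum. The ratio of its pooled CPM, Leydig-targeted over section, was 9.15 with a counting interval from 1.42 to 47.0. Nr5a1, the nuclear receptor that drives steroidogenic genes, had 4, 3 and 0 counts against 39, 20 and 15. Its change of 0.10 (SE 0.77, adjusted p = 0.95) was not distinguishable from no change, and its sign turned under several settings.

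Of 8 tested Leydig identity genes, 2 rose and none fell, with a median of 0.86, while 1.52% of all genes tested were higher. Prlr, the prolactin receptor, had 34, 19 and 3 counts against 59, 24 and 17, or 620, 708 and 504 CPM against 104, 45.9 and 68.7. It rose by 2.62 (SE 0.56, adjusted p = 0.00056) and lost its call only without entire-section library 3. Sult1e1, the estrogen sulfotransferase of Leydig cells, had 4, 5 and 1 counts against 8, 3 and 2 and rose by 3.12 (SE 0.79, adjusted p = 0.0074). This call was lost without Leydig-targeted library 2, entire-section library 2 or entire-section library 3.

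Ptgds and Vcam1 did not overlap between the groups but missed the threshold. Ptgds, a prostaglandin D synthase, had 4027, 11097 and 19506 CPM against 2078, 1154 and 2287, and a change of 1.73 (SE 0.66, adjusted p = 0.11). Vcam1, an adhesion molecule found on Leydig cells, had 674, 931 and 504 CPM against 252, 107 and 154, and a change of 1.62 (SE 0.56, adjusted p = 0.075). Under library size alone both passed, and so did each in the fit without Leydig-targeted library 3. The number of Leydig identity genes called was then 4 in each of those fits, and 0 without entire-section library 3.

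Genes that supply cholesterol and handle retinoids and aldehydes also held larger summed shares, without overlap (exact two-sided permutation p = 0.1 for each list, adjusted 0.2). The cholesterol list held 0.108%, 0.112% and 0.135% of Leydig-targeted counts and 0.0604%, 0.0490% and 0.0404% of section counts, a ratio of 2.36. None of its 12 tested genes passed with edgeR under TMM scaling or with DESeq2, and 2 had an unadjusted p under 0.05 with edgeR. Under library size alone edgeR called 2 higher, Fdft1 and Sc5d, and it called 2 without Leydig-targeted library 3. Fdft1, the squalene synthase, came closest, with 13, 2 and 0 counts against 17, 18 and 4 and a change of 2.05 (SE 0.67, adjusted p = 0.053). The retinoid and aldehyde list held 0.355%, 0.499% and 0.874% against 0.218%, 0.136% and 0.154%, a ratio of 3.40. Its median change was -0.31, beside -0.66 over all genes, and 6 of the 12 tested were positive. None of its 12 genes kept by the count minimum passed with edgeR under TMM scaling, 1 had an unadjusted p under 0.05, and DESeq2 called 1 higher. With edgeR's own expression filter in place of that minimum, 2 of 6 tested were called higher. Under library size alone edgeR called 2 higher, Aldh1a1 and Aldh2, and it called 1 without Leydig-targeted library 3. Aldh1a1, a retinaldehyde dehydrogenase, carried much of that share, with 2423, 3873 and 6726 CPM against 1280, 773 and 897 and a change of 1.31 (SE 0.62, adjusted p = 0.21).

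The 10 named genes with the smallest adjusted p among higher, non-overlapping genes included several enzymes. Ces1d, a carboxylesterase that hydrolyses lipid esters, had 17, 33 and 1 counts against 8, 11 and 5. In CPM it stood at 310, 1229 and 168 against 14.1, 21.1 and 20.2, with the lowest targeted library still above every section. It rose by 4.57 (SE 0.61, adjusted p = 1.1e-10). Aox1, an aldehyde oxidase, had 23, 10 and 6 counts against 15, 10 and 7 and rose by 3.75 (SE 0.60, adjusted p = 1.9e-07). Qpct, which forms pyroglutamate at peptide ends, had 13, 3 and 3 counts against 7, 6 and 0 and rose by 4.01 (SE 0.70, adjusted p = 3.8e-06).

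B3gnt3, a glycosyltransferase, had 15, 7 and 4 counts against 2, 3 and 1 and rose by 5.47 (SE 0.73, adjusted p = 1.1e-10). Slx1b, a subunit of a structure-specific DNA nuclease, had 16, 8 and 2 counts against 4, 4 and 3 and rose by 4.60 (SE 0.68, adjusted p = 1.5e-08). Pkdcc, a secreted tyrosine kinase, had 14, 18 and 1 counts against 11, 1 and 5 and rose by 4.41 (SE 0.64, adjusted p = 5.1e-09). All 3 therefore reached Leydig-targeted counts of the same order as section counts although the targeted libraries were far smaller.

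Fbxl18, an F-box protein of ubiquitin ligases, rose by 3.79 (SE 0.61, adjusted p = 2.6e-07). Speer4e, 1 of a family of closely related genes on chromosome 5 whose reads may be shared, rose by 5.43 (SE 0.79, adjusted p = 4.7e-09) on 15, 3 and 1 counts against 1, 2 and 1. These 8 genes kept their call in each of the 6 fits that left out a library.

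Of 5 tested genes in a list of nuclear-retained and imprinted noncoding RNAs, 4 rose and none fell, with a median of 2.36. This list too was chosen with earlier results of these data known. Over all genes tested 1.52% were higher. The 9 listed genes held 0.383%, 0.763% and 1.46% of Leydig-targeted counts against 0.102%, 0.0482% and 0.106% of section counts, a ratio of 10.2 (exact two-sided permutation p = 0.1, adjusted 0.2). All long noncoding RNAs together, 5382 genes, overlapped between the groups at 5.14%, 5.08% and 4.93% against 4.55%, 5.18% and 5.06%, a ratio of 1.02. Neat1, the scaffold RNA of paraspeckles, had 140, 142 and 62 counts against 214, 60 and 86. This was 2551, 5288 and 10425 CPM against 378, 115 and 347, and the change was 3.54 (SE 0.67, adjusted p = 5e-05). Neat1 thus carried most of the list's share in each Leydig-targeted library. Meg3, an imprinted noncoding RNA, had 20, 29 and 4 counts against 23, 12 and 16 and rose by 3.51 (SE 0.58, adjusted p = 7.5e-07). Both groups of each gene were apart in every library.

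Malat1, the abundant RNA of nuclear speckles, had 528, 521 and 1009 CPM against 86.5, 51.7 and 105 and rose by 2.36 (SE 0.56, adjusted p = 0.0035). Snhg11, a small nucleolar RNA host gene annotated as protein-coding, had 10, 12 and 12 counts against 60, 20 and 21 and rose by 2.15 (SE 0.57, adjusted p = 0.012). Kcnq1ot1, the imprinted antisense RNA, was not called, with 200, 223 and 504 CPM against 388, 235 and 444. Meg3 passed in every fit that left out a library, Neat1 in all but that without entire-section library 3 (adjusted p = 0.052), Malat1 in none without an entire-section library, and Snhg11 only without Leydig-targeted library 1.

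Among the higher genes were 5 nuclear copies of mitochondrial genes, annotated pseudogenes with sequence close to cytochrome oxidase transcripts. They were grouped because they were called higher, so their summed share describes that choice. Together they held 1.38%, 1.64% and 2.49% of Leydig-targeted counts and 0.0381%, 0.0323% and 0.0339% of section counts. In H3t knockout libraries the order was the reverse, at 0.272%, 0.290% and 0.184% in Leydig-targeted and 0.307%, 0.614% and 0.313% in section libraries. Gm29216 carried most of that knockout section share. The mitochondrially encoded genes themselves overlapped between the wild-type groups, at 3.22%, 4.14% and 8.76% against 3.06%, 4.09% and 6.10%.

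The sequences show how little separates a copy from its source. Gm29216 lies on chr1:24615706-24616197, minus strand (GRCm38), and 482 of 483 aligned bases matched mt-Co1. Gm13341 lies on chr2:22587291-22587962, minus strand, and 656 of 684 aligned positions matched mt-Co2, with 16 mismatches and 12 gap bases. From the GENCODE M21 transcripts, 60-base windows are shown 5′ to 3′, with differing bases in capitals: bases 10 to 69 of Gm29216 over 1063 to 1122 of mt-Co1, and 433 to 492 of Gm13341 over 445 to 504 of mt-Co2, the first gap-free stretch with the most differences.
Gm29216: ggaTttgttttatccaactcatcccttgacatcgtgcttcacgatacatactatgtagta
mt-Co1: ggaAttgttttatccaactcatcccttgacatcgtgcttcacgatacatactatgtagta
Gm13341: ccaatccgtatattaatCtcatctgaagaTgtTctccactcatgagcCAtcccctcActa
mt-Co2: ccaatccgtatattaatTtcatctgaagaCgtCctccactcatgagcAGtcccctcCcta

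Counted from 1 at the left end of each window, with the mitochondrial base named first, Gm29216 carries A4T and Gm13341 carries T18C, C30T, C33T, A48C, G49A and C57A. Gm28437 and Gm28661, beside Gm29216 on chromosome 1, matched mt-Co3 over 783 of 783 bases and mt-Co2 over 681 of 681. Gm13340, beside Gm13341 on chromosome 2, matched mt-Co1 over 1508 of 1545. Reads from such copies and from mitochondria cannot be separated with certainty.

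Gm29216 had 362, 207 and 88 counts against 17, 25 and 15, while mt-Co1 had 31, 12 and 5 against 60, 90 and 62. Relative to library totals, mt-Co1 too was higher in each Leydig-targeted library than in every entire section. The copy took 92.1%, 94.5% and 94.6% of the counts of the pair in Leydig-targeted libraries and 22.1%, 21.7% and 19.5% in entire sections. It rose by 6.90 (SE 0.83, adjusted p = 2.2e-13). Gm13341 had 315, 184 and 42 counts against 116, 66 and 28 and rose by 4.82 (SE 0.73, adjusted p = 2.5e-08). The copies with no mismatch rose too, Gm28437 by 3.42 (SE 0.60, adjusted p = 4.4e-06) and Gm28661 by 2.44 (SE 0.59, adjusted p = 0.0046). For Gm28661 the share of the pair did not separate the groups, at 35.0%, 33.3% and 33.3% against 45.2%, 36.9% and 31.4%. Gm13340 rose by 3.08 (SE 0.59, adjusted p = 5e-05). Gm28661 lost its call without Leydig-targeted library 2 or entire-section library 1 or 3, and Gm13340 without entire-section library 1 or 3.

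**Figure D4:**
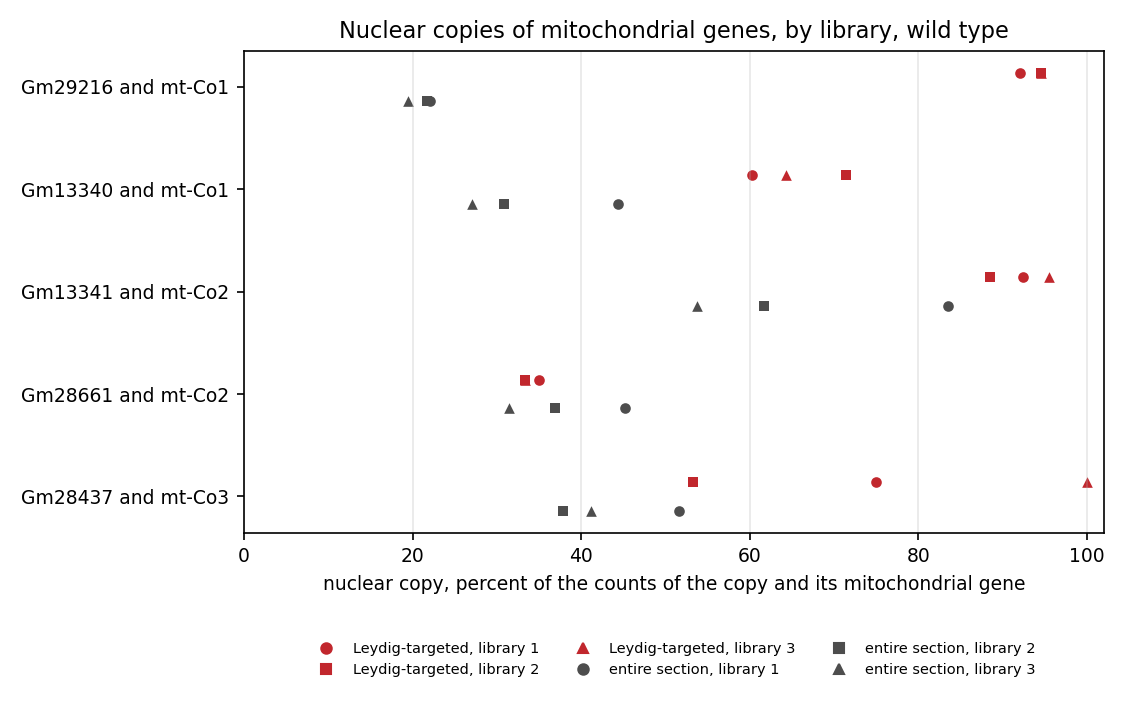
Counts of each nuclear copy as a percent of the counts of the copy plus its closest mitochondrial gene (horizontal axis); red marks are the 3 Leydig-targeted libraries and grey marks the 3 entire-section libraries. For Gm29216 all red marks lie above 92% and all grey marks below 23%, whereas for Gm28661, identical to mt-Co2 over its aligned length, the groups overlap.

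Other annotated gene models were higher as well. A group of 11 models (names from Gm10715 to Gm10801, with Gm11168 and Gm21738), also assembled after values were seen, held 3.55%, 3.94% and 7.65% of Leydig-targeted counts against 0.502%, 1.49% and 1.29%. Gm10721 had 22, 13 and 10 counts against 2, 3 and 0 and rose by 6.59 (SE 0.72, adjusted p = 5.7e-16). Gm48114 had 17, 9 and 3 counts against 5, 2 and 2 and rose by 5.07 (SE 0.69, adjusted p = 3.3e-10). All annotated pseudogenes held 3.58%, 3.84% and 4.81% against 1.47%, 1.49% and 1.46%, and without the 5 copies above 2.20%, 2.20% and 2.32% against 1.43%, 1.46% and 1.43%. Pseudogenes were 6.43% of higher genes, 0.952% of lower genes and 1.67% of all genes tested. The shares of counts were higher in the wild-type Leydig-targeted group, which was also the group of lower depth, and the part of depth in them was not tested. In H3t knockout libraries they overlapped, Leydig-targeted against section. All pseudogenes held 2.26%, 2.41% and 2.02% against 1.67%, 2.32% and 2.13%, and the 11 models 1.04%, 1.01% and 1.65% against 0.855%, 1.69% and 1.45%.

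Genes lower in the Leydig-targeted libraries included testis-specific and housekeeping genes. Pcsk4, a protease of spermatids and sperm, had 2, 1 and 0 counts against 649, 575 and 372. Its pooled CPM were 34.9-fold higher in entire sections (counting interval 11.9 to 169, adjusted p = 3.8e-06). Slc25a39, a mitochondrial glutathione carrier, had 14, 1 and 0 counts against 1142, 806 and 299 and fell by 3.79 on the log2 scale (SE 0.77, adjusted p = 2e-04). Tex22, a testis-expressed gene, had 4, 4 and 0 counts against 430, 532 and 170 and fell by 3.60 (SE 0.81, adjusted p = 0.0014). Csnka2ip had 2, 0 and 0 counts against 146, 296 and 67, a ratio of 16.7 (interval 4.60 to 138, adjusted p = 0.0013).

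Some of the lowest genes were not seen at all. Gps2, a subunit of a corepressor complex, had 0 counts in each Leydig-targeted library against 192, 112 and 76 and was at least 8.31-fold lower (adjusted p = 0.00025). Actr1a, a dynactin subunit, had 0 against 139, 98 and 53 and was at least 6.34-fold lower (adjusted p = 0.001). Kpnb1, the nuclear import receptor, had 2, 0 and 0 counts against 277, 143 and 140, a ratio of 18.4 (interval 5.06 to 152, adjusted p = 0.00056). Srp14, of the signal recognition particle, and Hnrnpm, a splicing regulator, gave ratios of 19.4 (interval 5.34 to 160, adjusted p = 0.00097) and 23.8 (interval 4.24 to 941, adjusted p = 0.0023). The models 1700001C19Rik (at least 4.77-fold lower, adjusted p = 0.0029), AI987944 (ratio 10.2, interval 3.45 to 49.4, adjusted p = 0.0044) and Gm34263 (ratio 19, interval 3.39 to 754, adjusted p = 0.0055) were the 3 lower gene models with the smallest adjusted p. Hnrnpm, Tex22 and 1700001C19Rik lost their call without entire-section library 3, and AI987944 and Gm34263 without 3 libraries each.

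Of 27 tested redox and metal genes, 3 fell and none rose, with a median of -1.39, while 2.28% of all genes tested were lower. Their share of counts overlapped between the groups, at 1.01%, 1.22% and 1.45% against 1.44%, 0.906% and 1.23%, a ratio of 1.03. Mt1, a metallothionein that binds zinc and copper, had 33, 13 and 5 counts against 2055, 1707 and 1083. Its CPM were 601, 484 and 841 against 3627, 3266 and 4375, with no overlap, and it fell by 3.21 (SE 0.72, adjusted p = 0.0014). Prdx5, a peroxiredoxin, had 0, 1 and 1 counts against 149, 69 and 36, a ratio of 8.33 (interval 2.28 to 69.2, adjusted p = 0.03). Gclm, the regulatory subunit of glutathione synthesis, had 0, 1 and 0 against 87, 54 and 30, a ratio of 11.2 (interval 1.99 to 446, adjusted p = 0.037). Gsta3, a glutathione transferase that also acts in steroid synthesis, went the other way without passing, at 128, 484 and 841 CPM against 54.7, 57.4 and 84.8 (1.84, SE 0.59, adjusted p = 0.051). It passed under library size alone, other scalings and DESeq2, and without Leydig-targeted library 1 or 3. The calls of Prdx5 and Gclm held only without Leydig-targeted library 3, and that of Mt1 was lost without Leydig-targeted library 2 or entire-section library 3.

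Germ cell transcripts were still present in the Leydig-targeted libraries. Spermatocyte and spermatid genes together held 4.63%, 3.39% and 2.59% of counts against 5.10%, 8.44% and 6.74%, a ratio of 0.523 with no overlap (exact two-sided permutation p = 0.1, adjusted 0.2). Round spermatid genes alone did not overlap, at 1.26%, 1.20% and 1.03% against 1.74%, 2.63% and 2.01%. Shares overlapped for elongating spermatid genes (2.71%, 1.65% and 1.11% against 2.70%, 4.95% and 4.10%), for spermatocyte genes (0.671%, 0.540% and 0.454% against 0.659%, 0.866% and 0.636%) and for spermatogonial genes, whose ratio was 0.788. Of 17 round spermatid genes 4 fell and none rose, of 20 elongating spermatid genes 1 fell, and of 12 spermatocyte genes 1 fell. Under library size alone 1 of the 20 and 1 of the 12 were called higher. In the fit of all 12 libraries 6 of the 17, 10 of the 20 and 1 of the 12 were called lower and none higher. That fit called 135 higher and 746 lower among all 9218 genes. Over all genes tested, with TMM scaling of the 6 libraries, 1.52% were higher and 2.28% lower. With that scaling, changes were positive without passing for 2, 5 and 3 genes of these lists. The medians were -0.67, -1.26 and -0.41, beside -0.66 over all genes, so that the round spermatid list as a whole sat at the median of all genes.

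Acrv1, an acrosomal protein, had 23, 25 and 1 counts against 1066, 1838 and 606, or 419, 931 and 168 CPM against 1882, 3517 and 2448. It fell by 2.73 (SE 0.69, adjusted p = 0.0078). Ybx2, an RNA-binding protein that stores germ cell mRNA, had 1531, 1080 and 336 CPM against 3818, 4137 and 3773 and fell by 2.28 (SE 0.67, adjusted p = 0.028). Gk2, a testis glycerol kinase, fell by 2.42 (SE 0.68, adjusted p = 0.018), and Tssk1, a testis-specific kinase, by 2.44 (SE 0.72, adjusted p = 0.028). Ybx3, of the spermatocyte list, fell by 2.46 (SE 0.68, adjusted p = 0.016). Sycp1, of the same list, went the other way without passing, at 164, 335 and 336 CPM against 38.8, 59.3 and 60.6. Its change was 1.71 (SE 0.62, adjusted p = 0.089), and it passed under library size alone (adjusted p = 0.0059). None of the 4 round spermatid calls held in a fit without any 1 entire-section library.

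Rimbp3, a manchette protein of elongating spermatids, had 26, 7 and 1 counts against 687, 820 and 275 and fell by 2.34 (SE 0.68, adjusted p = 0.023). Prm2 had 7780, 4208 and 3699 CPM against 10693, 20419 and 17391, and its change of -2.12 (SE 0.70) missed the threshold at an adjusted p of 0.055 while passing under library size alone (0.046). Prm1, the other protamine, had 9019, 5474 and 3195 CPM against 8128, 15232 and 12111, which overlapped, with a change of -1.44 (SE 0.68, adjusted p = 0.20). Leydig-targeted library 1 thus carried protamine RNA at the level of entire-section library 1. Tnp1, a transition protein, likewise overlapped at 3990, 2234 and 3195 CPM against 3013, 6046 and 5114. Tnp2, the other transition protein, overlapped at 1658, 931 and 168 CPM against 560, 949 and 755. Its change was 0.07 (SE 0.60, adjusted p = 0.96). Oaz3, also of the elongating spermatid list, had 6, 0 and 0 counts against 10, 4 and 1. Its change of 2.13 (SE 0.88, adjusted p = 0.15) was not called.

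**Figure D5:**
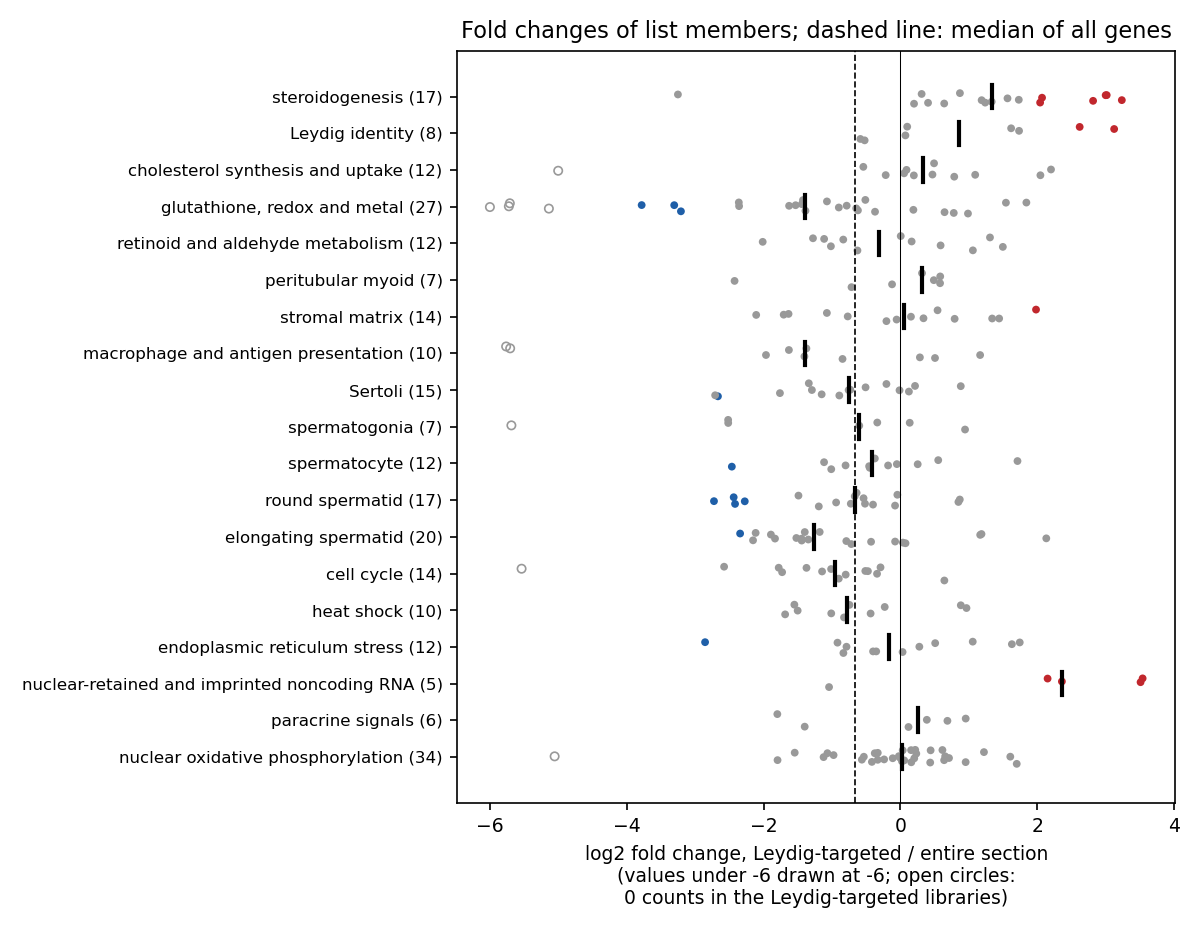
Log2 fold changes (horizontal axis) of the tested members of 19 gene lists; red members were called higher, blue lower and grey not called, thick ticks are list medians, open circles have 0 Leydig-targeted counts, and the dashed line is the median of all genes. Red members lie in the steroidogenesis, Leydig identity, stromal matrix and nuclear noncoding RNA lists, and blue members mainly among redox and spermatid genes.

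Other somatic cells of the testis gave overlapping shares. Sertoli genes, which mark the nurse cells inside the tubules, held 0.496%, 0.559% and 0.286% against 0.757%, 0.408% and 0.616%. Of 15 tested, 1 fell: Cst9, a cystatin, with 164, 298 and 0 CPM against 1096, 733 and 881 (a fall by 2.67, SE 0.72, adjusted p = 0.013). This call held only in the fits without Leydig-targeted library 1 or 3, and 2.28% of all genes tested were lower. The Sertoli marker Clu had 2514, 2644 and 1177 CPM against 2932, 1464 and 2420, which overlapped.

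Of the stromal matrix genes, 1 of 14 rose: Igfbp7, a secreted growth factor binding protein, at 219, 521 and 336 CPM against 70.6, 51.7 and 60.6 (1.98, SE 0.58, adjusted p = 0.026). It too kept its call only without Leydig-targeted library 1 or 3, and 1.52% of all genes tested were higher. Col1a1, the collagen of fibroblasts, was not called at 54.7, 112 and 0 CPM against 182, 207 and 279 (-2.11, SE 0.78, adjusted p = 0.098). Acta2, the actin of peritubular myoid cells, was not called at 601, 298 and 0 CPM against 655, 318 and 529 (-0.71, SE 0.61, adjusted p = 0.51).

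Interstitial macrophages lie against Leydig cells, but their genes held 0.0437%, 0.0335% and 0.0336% against 0.0598%, 0.0279% and 0.0529%. None of 10 tested passed with edgeR or with DESeq2, and 3 had an unadjusted p under 0.05 with edgeR. Of the 16 macrophage genes 5 had 0 counts in all Leydig-targeted libraries, among them C1qa and Adgre1. Of 13 endothelial genes 9 had 0 counts there, Pecam1 included, and the whole list had 10 counts against 175 in entire sections. Its shares overlapped, at 0.0109%, 0.0149% and 0% against 0.0162%, 0.00918% and 0.0141%. The macrophage list had 35 counts against 616. Zeros at this depth do not show that a cell type was absent. The endothelial gene Ly6c1 had 0 counts against 47, 15 and 19 and was at least 1.77-fold lower, without passing (adjusted p = 0.061). The macrophage gene C1qb, a complement subunit, had 3, 1 and 0 counts against 98, 41 and 38, also without passing (adjusted p = 0.16). With the count minimum, no gene of the endothelial list passed with DESeq2 or with edgeR under TMM scaling of the 6 libraries. In that edgeR fit 1 of 2 tested had an unadjusted p under 0.05. Without a count filter edgeR called 1 of 12 lower. In the fit of all 12 libraries 1 was called lower.

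Stress and energy genes showed few changes, beside 1.52% higher and 2.28% lower over all genes tested. Of 12 genes of the endoplasmic reticulum stress list 1 fell: Pdia6, a protein disulfide isomerase, with 2, 1 and 0 counts against 148, 65 and 45 (ratio 5.64, interval 1.91 to 27.5, adjusted p = 0.043), a call that held only without Leydig-targeted library 3. With the count minimum, no heat shock gene of 10 and no nuclear oxidative phosphorylation gene of 34 passed with edgeR under TMM scaling of the 6 libraries. Of these, 2 and 3 had an unadjusted p under 0.05. Without a count filter 1 nuclear oxidative phosphorylation gene was called higher, as was 1 with edgeR's own expression filter. Under library size alone 1 and 2 were called higher, and in the fit of all 12 libraries 1 of each was called lower. DESeq2 called none of the first and 1 in each direction of the second.

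In the fit of all 12 libraries, the same region difference in H3t knockout testis gave 44 higher and 171 lower genes of 9218. That fit gave 135 higher and 746 lower genes in wild type, and the genes were kept by their wild-type counts. Steroidogenic and Leydig genes held 7.67%, 8.44% and 9.34% of the knockout Leydig-targeted counts and 4.84%, 4.32% and 4.96% of the knockout section counts. Tested in a fit of all 12 libraries, the region difference itself differed between genotypes for 14 genes (0.152%), 8 more positive in wild type and 6 more negative. With library size alone they were 48 and 13, and without Leydig-targeted library 3 they were 97 and 2. None of the steroidogenic genes named above passed this test: Cyp11a1 had a difference of 3.24 (adjusted p = 0.18), Akr1cl of 1.97 (0.20) and Star of 1.31 (0.61).

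The gene with the largest positive difference was Gm29216, at 10.94 (SE 0.82, adjusted p = 3.7e-36). Its CPM were 6596, 7709 and 14797 in wild-type Leydig-targeted and 30.0, 47.8 and 60.6 in wild-type section libraries, but 226, 227 and 65.8 in knockout Leydig-targeted and 2249, 4972 and 2306 in knockout section libraries. The order of region was thus opposite in the 2 genotypes, in every library. Since each of the 4 groups was its own library pool, pool and group cannot be told apart for this gene. Ces1d, by contrast, rose in both genotypes, by 4.57 in wild type and 2.49 in the knockout (SE 0.48, adjusted p = 0.00029), and its difference of 1.79 did not pass (adjusted p = 0.40). Among the other higher genes named above, Pkdcc was also called in the knockout (2.31, adjusted p = 0.0012). Aox1, Fbxl18 and Slx1b were not (adjusted p = 0.11, 0.56 and 0.68). B3gnt3 and Qpct changed there by -0.016 and 0.0037 (SE 0.75 and 0.70). Their differences of 5.22 and 3.75 passed (adjusted p = 0.00026 and 0.046).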

How the data were processed

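Libraries of wild-type testis sections were made by photo-isolation chemistry. The deposited table holds whole-number counts per gene made by the authors, with UMI-tools, Trim Galore, HISAT2 and featureCounts on GRCm38 per the submitters' processing notes; no source used here gives their versions or the strand setting. Of 28595 genes, 4946 had no count in the 6 libraries. Genes with 20 or more counts over the 6 libraries were tested with edgeR 4.0.16 in R 4.3.3 (quasi-likelihood, robust, TMM scaling), with Benjamini-Hochberg adjustment over 9218 genes; SE is the absolute log2 change divided by the square root of F. The region by genotype difference used all 12 libraries. Shares of counts were compared with exact two-sided permutation tests. A gene with 0 Leydig-targeted counts is given a bound, computed as if the group held 3 counts, and a gene with 1 to 3 counts an exact counting interval of the ratio. DESeq2 1.42.0, other scalings, filters, a replicate block and fits leaving out a library were alternatives. The scripts were tested on simulated data. Gene positions and transcripts came from GENCODE M21, promoters from RefSeq (GRCm38.p6), and copies were aligned with blastn.

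The members and gene lists were chosen with earlier results of these data known. Named genes were the 10 higher and 10 lower annotated genes with the smallest adjusted p and no overlap in CPM, at most 5 per list with the smallest p, a fixed set of Leydig, spermatid and somatic markers, the 5 genes of each sign with the smallest adjusted p for the genotype difference, and the 3 gene models of each sign. Of these, those that carried a result are given, and the copies and models grouped after their values were seen are marked as such.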

Additional observations from a re-analysis of the deposited data

Results flagged for a closer look

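The region difference of some genes differed between wild-type and H3t knockout testis by edgeR's test of the difference itself, over 12 libraries; values are log2, wild type minus knockout. Each group was its own library pool, so pool and group cannot be told apart. More positive in wild type were Gm29216 at 10.94 (adjusted p = 3.7e-36), Gm13341 at 3.76 (adjusted p = 0.00011), B3gnt3 at 5.22 (adjusted p = 0.00026), Gm10721 at 5.56 (adjusted p = 0.0034) and Gk5, a glycerol kinase family gene, at 5.83 (adjusted p = 0.012). Gk5 rested on Leydig-targeted library 1, which held 21 of its counts while the other two held 0. Its difference was -2.16 without that library.

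More negative in wild type were Gm14128 at -10.7 (adjusted p = 2.7e-06), Tmem106c at -8.69 (adjusted p = 0.012), Cetn4, a centrin, at -4.18 (adjusted p = 0.022), Rsl24d1 at -8.44 (adjusted p = 0.023) and Mea1 at -5.52 (adjusted p = 0.033). Tmem106c and Rsl24d1 had 0 counts in each wild-type Leydig-targeted library, and Gm14128 had 0 in each knockout section library, so these fitted values are no bounds. In knockout Leydig-targeted libraries Gm14128 had 151, 0 and 0 CPM, so its knockout value rested on 1 library, and no fit left out a knockout library. Cetn4 was lower in wild-type Leydig-targeted libraries (601, 782 and 505 CPM against 1453, 1890 and 1487) and higher in knockout ones (94.3, 126 and 65.8 against 12.6, 15.3 and 31.1). The calls of Tmem106c, Cetn4, Rsl24d1, Mea1 and Gk5 were each lost without at least 1 wild-type library.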

How the results depend on the processing

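At the depth of the Leydig-targeted group 3 counts are 34.2 CPM. The 140 higher genes became 330 with library size alone. The 210 lower genes became 330 without a count filter and 746 in the fit of all 12 libraries. Leaving out 1 library gave 34 to 209 higher and 7 to 338 lower genes. The replicate block gave 10 higher and 1 lower. Same-numbered libraries correlated at -0.0528, 0.00985 and 0.0375 across genes. With so few counts in the Leydig-targeted libraries, these values cannot tell whether same-numbered libraries share an animal. Their labels share only a number. Of 52 named calls, 52 were kept with library size alone, 51 with DESeq2, 8 with the block and 47 without a filter. For the genotype difference, 8 and 6 became 48 and 13 with library size alone, 24 and 51 with DESeq2, and 7 and 3 with the block, and ran from 5 to 97 and 2 to 9 on leaving out 1 library.

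The ratio of round spermatid shares ran from 0.501 to 0.619 and that of macrophage shares from 0.656 to 0.914 on leaving out 1 library. Nr5a1 turned to -0.26 without a filter, -0.01 without Leydig-targeted library 1, -0.20 without Leydig-targeted library 2, -0.11 without entire-section library 2 and -0.15 in the fit of all 12 libraries, and reached 0.33 without Leydig-targeted library 3. On leaving out 1 library, Gk5 ran from -3.83 (without Leydig-targeted library 1) to 5.44 around 4.62, and its genotype difference from -2.16 (without the same library) to 6.83 around 5.83. The cause was not tested.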

Other observations

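Genes of the Y chromosome (197 genes) held 0.228%, 0.145% and 0.135% of Leydig-targeted counts against 0.0461%, 0.0471% and 0.0388% in entire sections, a ratio of 3.85 with no overlap (exact two-sided permutation p = 0.1, adjusted 0.2). Ribosomal protein genes held 1.26%, 1.38% and 1.13% against 1.48%, 1.51% and 1.51%. Genes with a single exon block were 12.9% of higher, 7.14% of lower and 5.91% of all tested genes.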
